A study of Rattus norvegicus with 9 samples.

Results

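N-glycosylation places a branched sugar chain on asparagines of proteins that enter the endoplasmic reticulum (ER). The chain is first built on the membrane lipid dolichol, on the cytosolic side of the ER and then inside it, and the oligosaccharyltransferase (OST) hands it to the growing protein. Glucosidases and mannosidases then trim it while lectin chaperones read the remaining sugars to decide whether the protein has folded, and Golgi enzymes add branches, galactose, fucose and sialic acid. Insulin itself carries no N-glycan, whereas many receptors, transporters and processing enzymes of the beta cell do. The genes of this pathway were taken as all genes whose KEGG annotation in the authors' table lists pathway 00510, N-glycan biosynthesis, which gave 48 of 20645 genes.

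Their mRNA was followed in INS-1E cells, an insulin-secreting rat insulinoma line, over 9 RNA-seq libraries. Cells received bovine serum albumin as the vehicle control (BSA), 0.5 mM palmitic acid (PA), or 0.5 mM PA together with 50 µM cyanidin-3-O-glucoside (PA + C3G), a plant anthocyanin, for 24 h, with 3 replicates in each group. No group received C3G without PA, and the cells are a single tumor-derived line. The doses come from the methods of the study, since the labels name the agents and the time alone. The methods of the study speak of biological triplicates for its experiments and of 3 replicate samples per group for sequencing, and the p-values measure the spread between these libraries.

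Each library held between 45559993 and 66730721 estimated counts. All 12 beta-cell markers looked at had a mean of at least 1 FPKM (fragments per kilobase of gene, normalized to library size), and their summed level, most of it from the insulin genes Ins1 and Ins2, was 49362 to 50104 FPKM with BSA, 22502 to 23051 with PA and 46986 to 52685 with PA + C3G. Of 17 markers of other islet, acinar, duct, fibroblast, leukocyte and endothelial cells, 12 were in the table and 3 (Gcg, Krt7 and Pdgfra) reached 1 FPKM; none of the 12 was at 0 in every library, 7 lay under 0.1 FPKM, and their sum was 107 to 131, 93.4 to 134 and 108 to 175 FPKM in the 3 groups. The part of these insulin transcripts in the values that follow was not tested. Differences were tested with edgeR's quasi-likelihood test over the 12958 genes with a mean of at least 1 FPKM, and a gene is said to rise or fall when its Benjamini-Hochberg adjusted p over all those genes was under 0.05. Log2 fold changes are given with their standard error (SE).

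PA raised most OST genes and most trimming genes of the ER and cis-Golgi. It lowered several enzymes of Golgi branching and galactose addition, and also some genes of ER steps, such as Dolpp1, Alg8, Alg10 and Tusc3. Of the 48 genes, 46 could be tested. Relative to BSA, 20 rose and 12 fell, 32 in all or 69.6% of those tested, where 51.0% of all genes tested passed the same threshold (25.8% higher and 25.2% lower). The share that rose was 43.5%, above the background, and the share that fell was 26.1%, next to it. The median log2 fold change of the 46 genes was 0.08, against 0.00 over all genes tested. A fold change above 2 with an unadjusted p under 0.05, which is how the study itself called genes, was met by 4 genes (Rpn2, Ddost, Man1a1 and Man1c1), all of them higher with PA, and by 7.56% of all genes tested.

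In FPKM, which can be added and compared between genes because it is scaled to length, the 48 genes summed to 1792 ± 35.0 with BSA (SD, n = 3), 2547 ± 49.1 with PA and 2480 ± 101 with PA + C3G. That is 1.42 times the BSA level with PA and 1.38 times with PA + C3G, and neither group overlapped with BSA (p = 0.1 in a two-sided exact permutation test, which cannot go lower with 3 libraries against 3). PA and PA + C3G overlapped (ratio 0.974, exact permutation p = 0.5). As a share of all FPKM in a library, however, the 48 genes made up 0.482% to 0.502% with PA and 0.448% to 0.479% with PA + C3G, which did not overlap, so this comparison turns on the scaling. With BSA, Rpn1 was the most abundant at 362 ± 10.7 FPKM, followed by Rpn2 at 226 ± 11.99, Ganab at 161 ± 10.8, Ddost at 99.3 ± 4.83 and Tusc3 at 69.6 ± 2.39, none of which overlapped with its neighbour. B4galt3 (61.0 ± 1.74) and Alg2 (60.0 ± 1.86) came next and could not be told apart. At the other end, St6gal1, an enzyme that caps N-glycans with sialic acid in the alpha-2,6 linkage, had 0.958, 0.552 and 1.15 FPKM with BSA, 0.653, 0.284 and 0.277 with PA, and 0.920, 0.580 and 0.482 with PA + C3G. Mgat4c, a relative of the branching enzymes, lay between 0 and 0.190 FPKM. These 2 genes were under the filter and were not tested. The sum was dominated by a few genes: Rpn1, Rpn2, Ganab and Ddost made up 46.0% to 48.5% of it with BSA, 57.0% to 57.8% with PA and 56.9% to 58.0% with PA + C3G. Those 4 went from 848 ± 38.0 FPKM with BSA to 1463 ± 37.7 with PA, while the other 44 together went from 944 ± 9.56 to 1084 ± 11.8.

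**Figure D1:**
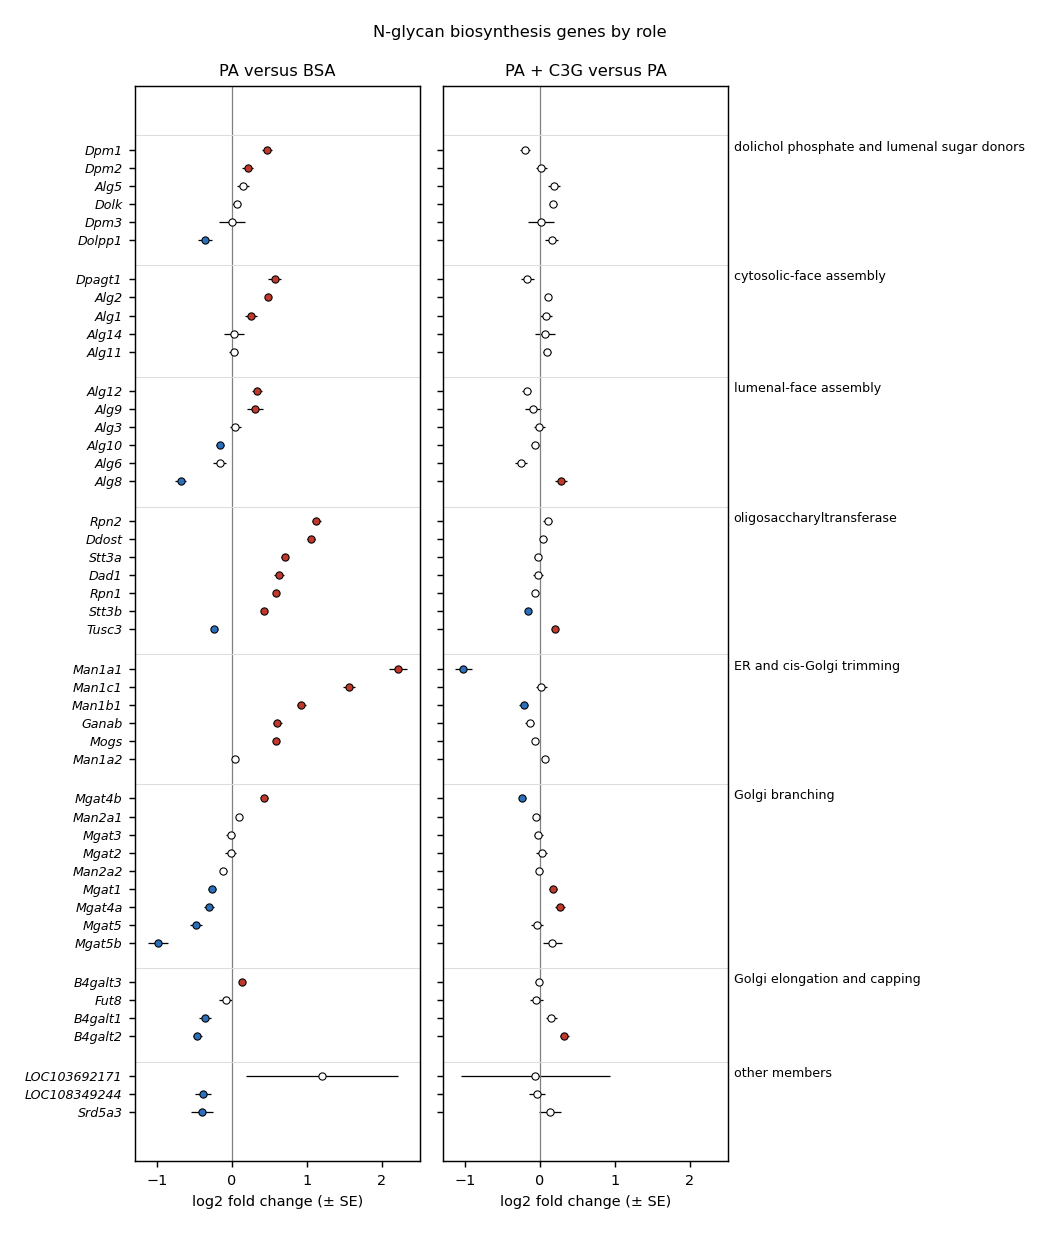
Log2 fold change with its SE (edgeR) for each of the 46 tested N-glycan genes, grouped by role, for PA versus BSA on the left and PA + C3G versus PA on the right. Red points rose and blue points fell at an adjusted p under 0.05 and open points did not pass. The largest PA rises that passed were in the OST and trimming groups. Falls with PA lay among the Golgi enzymes and also in other groups (Dolpp1, Alg8, Alg10, Tusc3, Srd5a3 and LOC108349244).

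Among the genes that supply dolichol-linked donors, 2 of 6 rose with PA and 1 fell, and this share of 50.0% lay near the 51.0% of all genes tested. Dpm1, the catalytic subunit of dolichol-phosphate mannose synthase, had 13.5, 13.8 and 14.1 FPKM with BSA and 17.5, 18.4 and 20.3 with PA. All PA libraries were above all BSA libraries, a log2 fold change of 0.47 ± 0.07 (edgeR's quasi-likelihood test, adjusted p = 0.000341). Its partner Dpm2 had 34.8, 39.2 and 37.1 FPKM with BSA and 45.2, 39.3 and 41.7 with PA, where the lowest PA library barely cleared the highest BSA library (0.21 ± 0.07, edgeR adjusted p = 0.0351). That call was lost without BSA replicate 1 or 3 or PA replicate 1 or 3 (adjusted p from 0.0615 to 0.139), in a fit to the BSA and PA libraries alone (0.0581) and with the replicate number as a block (0.0550). Dolpp1, the phosphatase that recycles dolichol diphosphate after transfer, had 13.3, 13.1 and 15.4 FPKM with BSA and 10.97, 10.7 and 10.2 with PA, all lower, and fell by 0.36 on the log2 scale (edgeR adjusted p = 0.00758). Alg5, Dolk and Dpm3 had log2 fold changes of 0.14, 0.06 and −0.00 and did not pass.

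Assembly on the cytosolic face rose in part, and assembly inside the ER moved both ways. On the cytosolic face, 3 of the 5 genes placed there by symbol rose and none fell, with a median log2 fold change of 0.25. The share that rose was 60.0%, against 25.8% of all genes tested. LOC108349244, annotated as Alg13, also belongs to this face but was counted among the last 3 genes, and it fell (−0.39, edgeR adjusted p = 0.0114). Dpagt1, which starts the chain by adding the first sugar phosphate to dolichol and is the target of tunicamycin, had 15.8, 14.0 and 17.1 FPKM with BSA and 23.4, 20.4 and 24.6 with PA, a rise of 0.57 ± 0.09 (edgeR adjusted p = 0.000449). Alg2, a mannosyltransferase, had 57.8, 61.2 and 60.8 FPKM with BSA and 82.8, 82.9 and 80.5 with PA, a rise of 0.48 ± 0.04 (edgeR adjusted p = 4.04e-06). In both genes the groups stood clear of each other. Alg1, which adds the first mannose, had 11.3, 10.9 and 10.6 FPKM with BSA and 11.8, 12.6 and 13.9 with PA (0.25 ± 0.08, edgeR adjusted p = 0.0292). This smaller rise did not pass without BSA replicate 1, 2 or 3 or PA replicate 2 or 3 (adjusted p from 0.0523 to 0.113), and Alg1 overlaps a gene on the other strand. Alg14 and Alg11 had log2 fold changes of 0.03 and 0.02.

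Inside the ER, 2 of 6 genes rose and 2 fell, 33.3% each, against 25.8% and 25.2% of all genes tested. Alg8, which adds a glucose to the nearly finished chain, had 20.6, 21.4 and 18.3 FPKM with BSA and 11.8, 13.2 and 11.99 with PA. Every PA library was well under every BSA library, and Alg8 fell by 0.68 on the log2 scale (SE 0.07, edgeR adjusted p = 4.72e-05), the largest fall in the ER part of the pathway. Alg10, which adds the terminal glucose that OST recognizes, had 34.0, 30.6 and 32.8 FPKM with BSA and 28.1, 29.9 and 27.6 with PA, closer together than for Alg8 (−0.16 ± 0.05, edgeR adjusted p = 0.0267, lost without BSA replicate 1 or 3 or PA replicate 1 or 3, adjusted p from 0.0624 to 0.0967, and with libraries scaled to the same FPKM sum, 0.0765). Alg6, the first of these glucosyltransferases, was at −0.17 and did not pass (edgeR adjusted p = 0.122). The mannosyltransferase Alg12 had 13.9, 13.5 and 13.4 FPKM with BSA and 18.1, 15.8 and 16.5 with PA and rose by 0.33 ± 0.06 (edgeR adjusted p = 0.00136). The mannosyltransferase Alg9 also rose (0.30 ± 0.11, edgeR adjusted p = 0.0368), with the call lost without BSA replicate 1 or 2 or PA replicate 1 or 2 (adjusted p from 0.0643 to 0.153), without the filter on low genes (0.0609) and in limma on log2(FPKM + 1) or log2(FPKM + 0.1) (0.0549 and 0.0537). Alg3 was at 0.04. Of the 3 glucose-adding genes of this step, then, 2 fell and 1 did not pass, and of the 3 mannose-adding genes 2 rose and 1 did not pass. This split by sugar was not tested, and 1 call on each side (Alg10 and Alg9) was lost in several settings.

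All 7 listed subunits of OST changed with PA, 6 of them upward, and their median log2 fold change was 0.62. The share that rose was 85.7%, against 25.8% of all genes tested. Rpn2 (chromosome 3, 153398130 to 153445632, plus strand, in the coordinates of the authors' table, whose build is not given in the sources used here), a structural subunit, had 236, 213 and 228 FPKM with BSA and 499, 462 and 487 with PA. The 2 groups were far apart, a 2.18-fold rise (log2 1.12 ± 0.06, edgeR adjusted p = 4.72e-07). Ddost (chromosome 5, 156668712 to 156676035, plus strand), a subunit needed for the stability of the complex, had 103, 93.9 and 101 FPKM with BSA and 207, 197 and 203 with PA, a 2.07-fold rise (1.05 ± 0.05, edgeR adjusted p = 1.72e-07). Rpn1, which binds substrates near the active site, had 369, 349.7 and 367 FPKM with BSA and 534, 532 and 542 with PA (0.59 ± 0.03, edgeR adjusted p = 6.2e-07). Dad1, the small subunit named for the death of cells that lose it, rose by 0.62 ± 0.06 on the log2 scale (edgeR adjusted p = 3.11e-05), from 43.3 to 46.9 FPKM with BSA to 67.3 to 69.5 with PA. Rpn1 and Dad1 thus rose about as much as each other and less than Rpn2 and Ddost, a difference within the complex that was not tested.

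The catalytic subunits exist in alternative forms: OST with STT3A works beside the translocon during translation, and OST with STT3B, together with the oxidoreductase TUSC3 or MAGT1, reaches sites that were skipped. Stt3a had 40.9, 38.1 and 40.9 FPKM with BSA and 64.2, 62.0 and 65.6 with PA (0.70 ± 0.04, edgeR adjusted p = 8.76e-07). Stt3b had 31.3, 28.8 and 31.6 FPKM with BSA and 40.0, 40.3 and 40.8 with PA (0.43 ± 0.04, edgeR adjusted p = 2.04e-05). Tusc3 (chromosome 16, 56247659 to 56396502, plus strand) went the other way, with 67.2, 71.9 and 69.8 FPKM with BSA and 56.9, 58.4 and 59.2 with PA, all lower, and fell by 0.23 on the log2 scale (SE 0.04, edgeR adjusted p = 0.00124). The row named Stt3a (chromosome 8, 39181163 to 39243705, minus strand) carries the description of checkpoint kinase 1 and 2 KEGG orthology entries, so its counts may also hold those of that cell-cycle gene, which was not tested, and Rpn2 and Stt3b each overlap a gene on the other strand.

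**Figure D2:**
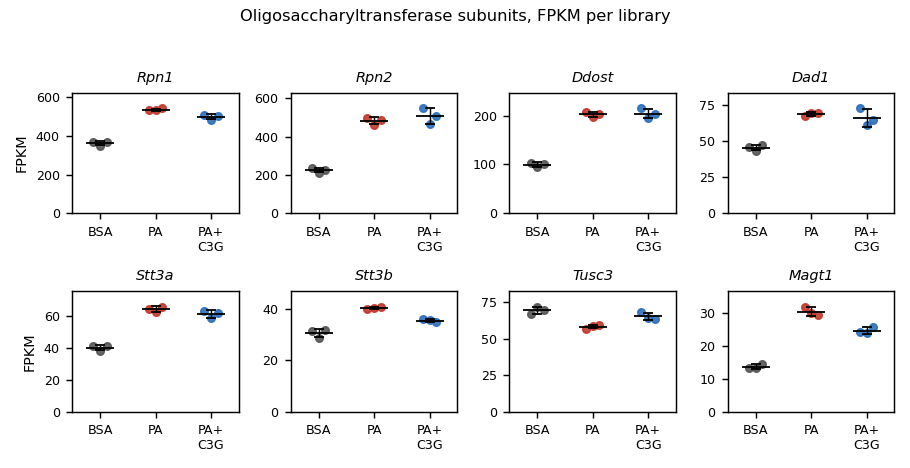
FPKM per library for the 7 OST subunits annotated to the pathway and for Magt1, the alternative to Tusc3, with BSA in gray, PA in red and PA + C3G in blue; bars show the mean and SD of 3 libraries and every axis starts at 0. Rpn1, Rpn2, Ddost, Dad1, Stt3a, Stt3b and Magt1 are higher in all PA libraries than in all BSA libraries, and Tusc3 is lower.

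Trimming showed the largest single changes. Of 6 genes, 5 rose with PA and none fell. The share that rose was 83.3%, against 25.8% of all genes tested, and 1 of the 5, Mogs, has a near-identical row described below. The median log2 fold change of the 6 genes was 0.76, and their summed level went from 257 ± 14.9 to 396 ± 15.1 FPKM. Glucose removal rose moderately. Mogs, glucosidase I, which takes off the outermost glucose, had 24.8, 23.2 and 23.6 FPKM with BSA and 35.7, 35.2 and 34.8 with PA (0.59 ± 0.04, edgeR adjusted p = 1.74e-06). Ganab, the catalytic subunit of glucosidase II, which removes the inner glucoses, had 171, 149.8 and 163 FPKM with BSA and 251, 228 and 245 with PA (0.61 ± 0.06, edgeR adjusted p = 2.03e-05). Mannose removal diverged between its enzymes. Man1b1 (chromosome 3, 2547986 to 2569049, plus strand), the mannosidase that marks misfolded glycoproteins for disposal, had 48.0, 41.8 and 45.0 FPKM with BSA and 84.4, 80.0 and 86.8 with PA, a 1.895-fold rise (0.92 ± 0.06, edgeR adjusted p = 1.11e-06). Man1c1 (chromosome 5, 152774855 to 152920343, minus strand), a Golgi mannosidase, had 2.51, 2.41 and 2.17 FPKM with BSA and 6.61, 7.01 and 6.97 with PA, a 2.95-fold rise (1.56 ± 0.08, edgeR adjusted p = 2.44e-07). Man1a1 (chromosome 20, 35257985 to 35450513, minus strand), a Golgi mannosidase that prepares the chain for complex processing, had 1.11, 1.29 and 1.06 FPKM with BSA and 6.03, 4.52 and 5.22 with PA, the largest change among the 46 genes (4.64-fold, log2 2.21 ± 0.12, edgeR adjusted p = 4.82e-07). Its relative Man1a2 had 23.6, 22.7 and 22.4 FPKM with BSA and 23.0, 23.5 and 23.0 with PA, so that the groups overlapped (0.04 ± 0.04, edgeR adjusted p = 0.413). The 2 most strongly raised mannosidases were the least abundant of the trimming genes with BSA.

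Of 9 Golgi branching genes tested, 4 fell with PA and 1 rose, with a median log2 fold change of −0.12. The share that passed, 55.6%, lay near the 51.0% of all genes, and the share that fell was 44.4% against 25.2%. The summed level of the group went from 164 to 161 FPKM, a ratio of 0.979. Mgat5b (chromosome 10, 105861743 to 105932042, plus strand), a branching enzyme of nervous tissue, had 3.71, 4.01 and 4.31 FPKM with BSA and 2.33, 1.97 and 1.66 with PA, and fell by 0.99 on the log2 scale (1.98-fold lower, edgeR adjusted p = 0.00017). Mgat5, which adds the branch that is often extended with long galactose-containing chains, had 13.5, 13.1 and 12.7 FPKM with BSA and 9.08, 9.68 and 8.97 with PA, and fell by 0.48 (edgeR adjusted p = 0.000869). In both genes no PA library reached the BSA range. Mgat1, which opens the way to complex glycans, had 27.5, 25.7 and 26.9 FPKM with BSA and 20.8, 21.7 and 22.9 with PA, and fell by 0.26 (edgeR adjusted p = 0.00175). The isoenzymes Mgat4a and Mgat4b add the same branch and moved in opposite directions. Mgat4a, known for the glycan that keeps the glucose transporter Slc2a2 at the beta-cell surface, had 9.86, 8.27 and 9.15 FPKM with BSA and 7.61, 7.27 and 6.82 with PA, and fell by 0.31 (edgeR adjusted p = 0.00335). Mgat4b (chromosome 10, 35726544 to 35736338, plus strand), the more abundant one, had 30.7, 31.0 and 28.9 FPKM with BSA and 38.9, 40.3 and 40.9 with PA, and rose by 0.43 ± 0.04 (edgeR adjusted p = 2.81e-05). Man2a1, Man2a2, Mgat2 and Mgat3, at 0.09, −0.12, −0.02 and −0.02, did not pass.

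Of the 4 tested genes that elongate or cap the chain, B4galt1 and B4galt2 fell and B4galt3 rose slightly. All 3 are galactosyltransferases. The share that fell was 50.0%, against 25.2% of all genes tested, and the share that rose was 25.0%, against 25.8%. B4galt2 (chromosome 5, 136707510 to 136715981, minus strand) had 24.5, 24.3 and 25.5 FPKM with BSA and 18.2, 18.3 and 16.5 with PA, and fell by 0.46 (SE 0.06, edgeR adjusted p = 0.00013). B4galt1, the form best known from lactose synthesis, had 12.8, 12.5 and 13.3 FPKM with BSA and 9.32, 10.2 and 10.1 with PA, and fell by 0.36 (edgeR adjusted p = 0.0028). The groups did not overlap in either gene. B4galt3, the most abundant of them, had 62.8, 59.3 and 61.0 FPKM with BSA and 67.5, 63.1 and 66.9 with PA, with only a small gap between the groups (0.13 ± 0.04, edgeR adjusted p = 0.025, lost without BSA replicate 2 or 3 or PA replicate 1 or 3, adjusted p from 0.0752 to 0.102, and in limma with a pseudocount of 1 or of 0.1, 0.0615 and 0.0620). Fut8, the core fucosyltransferase, was at −0.08 and did not pass.

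The last 3 genes were left outside these roles, which were assigned by gene symbol. Srd5a3, the polyprenol reductase that makes dolichol, had 13.1, 13.8 and 18.7 FPKM with BSA and 12.8, 9.998 and 11.4 with PA. The ranges were close, and its call (−0.40 ± 0.15, edgeR adjusted p = 0.0466) was lost without BSA replicate 3 (adjusted p = 0.165) and without PA replicate 2 or 3 (0.145 and 0.105). With all libraries in place it was also lost with libraries scaled to the same FPKM sum (0.0665), without the filter on low genes (0.0601), in a fit to BSA and PA alone (0.0610) and with the replicate block (0.0634). LOC108349244, described as a putative bifunctional UDP-N-acetylglucosamine transferase, as which Alg13 is annotated, had 6.03, 6.09 and 5.91 FPKM with BSA and 5.18, 3.73 and 4.66 with PA, and fell by 0.39 (edgeR adjusted p = 0.0114). LOC103692171 has the same description as Mogs and is listed at 0 in BSA replicate 1, with 24.2 and 23.7 FPKM in the other BSA libraries and 36.3, 36.1 and 35.7 with PA. With that library it did not pass (1.20 ± 1.01, edgeR adjusted p = 0.356), and without it the value was 0.60, close to that of Mogs, and passed (edgeR adjusted p = 6.57e-06). Reads of the near-identical rows could have gone to either. Mogs itself had 24.8 FPKM in BSA replicate 1, beside 23.2 and 23.6 in the other BSA libraries. How reads were shared between the rows was not tested.

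**Figure D3:**
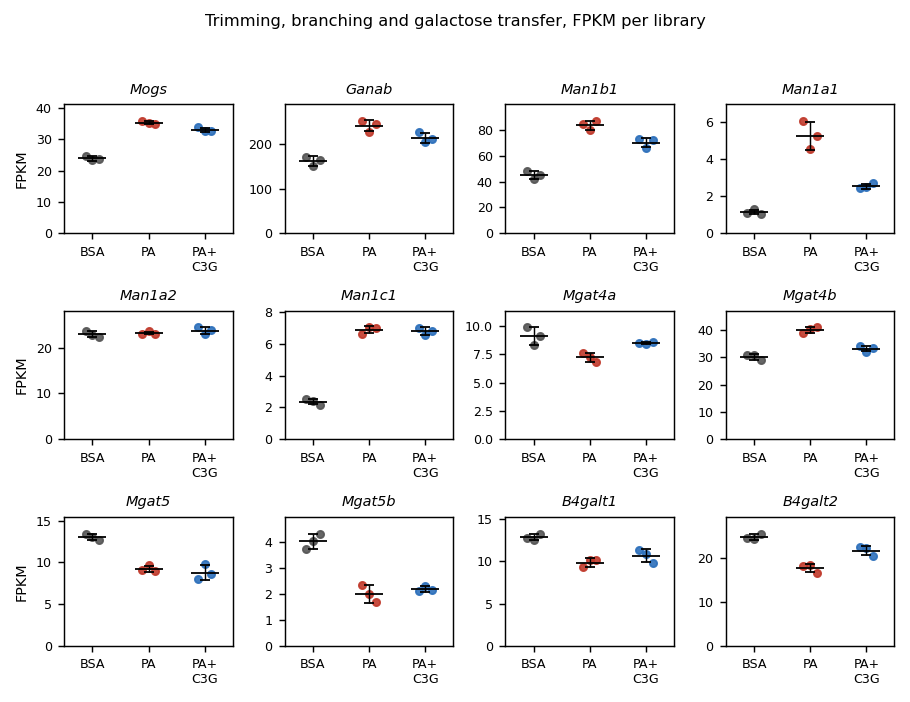
FPKM per library for 12 genes of trimming, branching and galactose transfer, with BSA in gray, PA in red and PA + C3G in blue; bars show the mean and SD of 3 libraries and every axis starts at 0. Man1a1 is highest with PA (4.52 to 6.03) and intermediate with PA + C3G (2.43 to 2.69), Man1c1 overlaps between these 2 groups, and Mgat5 and Mgat5b are under BSA in both.

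The genes were also read by a second annotation. Of the 48, 14 are also annotated to the KEGG pathway of protein processing in the ER. These 14 are the 7 OST genes, the 6 trimming genes and LOC103692171, so their counts repeat the results above in another grouping. Among those 14, 11 rose (78.6%, against 25.8% of all genes) and 1 (Tusc3) fell, with a median log2 fold change of 0.66. Of the 32 other tested genes, 9 rose and 11 fell, with a median of −0.01. Their 28.1% higher lay near the background, and their 34.4% lower stood against 25.2%. The difference between these subsets was described and not tested.

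Adding C3G to PA changed few of these genes. Relative to PA alone, 9 of 46 passed the test, 5 higher and 4 lower, or 19.6%, where 21.2% of all genes tested did (11.1% higher and 10.2% lower), a share near the background. The median log2 fold change was −0.01, against −0.00 over all genes tested. One gene, Man1a1, met the fold criterion, as did 1.13% of all genes tested. The balance of directions rested on the scaling of the libraries: with each library scaled to the same FPKM sum, 1 gene was higher and 11 were lower, and all genes tested then split into 775 higher and 2525 lower. Without PA replicate 3 or PA + C3G replicate 2, 5 genes passed in place of 9.

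The clearest C3G difference was in Man1a1, which had 6.03, 4.52 and 5.22 FPKM with PA and 2.43, 2.47 and 2.69 with PA + C3G. Every PA + C3G library was under every PA library, and the gene fell 2.02-fold (log2 −1.02 ± 0.12, edgeR adjusted p = 0.000533). Its level stayed above BSA, where it had 1.06 to 1.29 FPKM (1.20 ± 0.12, edgeR adjusted p = 4.43e-05). Without PA replicate 1 the log2 difference to PA was −0.91 and without PA + C3G replicate 1 it was −0.99, both still past the test and short of the fold criterion. Man1c1, also raised by PA, had 7.01, 6.54 and 6.81 FPKM with PA + C3G, overlapping with PA (0.02 ± 0.07, edgeR adjusted p = 0.877). Man1b1 had 72.9, 66.0 and 71.9 FPKM with PA + C3G, all under the PA libraries, and fell by 0.22 (edgeR adjusted p = 0.0256), a call that was lost without PA replicate 1 or 3 or PA + C3G replicate 2 or 3 (adjusted p from 0.0538 to 0.0919).

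In the Golgi, C3G was accompanied by a fall of Mgat4b and a rise of B4galt2, both of which held with every library left out in turn. Mgat4b had 34.2, 32.1 and 33.3 FPKM with PA + C3G, all under the PA libraries, and fell by 0.23 (SE 0.04, edgeR adjusted p = 0.00584). B4galt2 had 22.4, 22.1 and 20.4 FPKM with PA + C3G, all above the PA libraries, and rose by 0.33 ± 0.06 (edgeR adjusted p = 0.00464). Mgat4a, with 8.50, 8.43 and 8.59 FPKM, was also higher than with PA (0.27 ± 0.07, edgeR adjusted p = 0.0174), though not past the test without PA replicate 3 (adjusted p = 0.0683) or without PA + C3G replicate 1 or 3 (0.0505 and 0.0544). It also missed with libraries scaled to the same FPKM sum (0.0860) and in limma with a pseudocount of 1 or of 0.1 (0.0621 and 0.0591). Mgat1, with 24.5, 24.7 and 22.9 FPKM, touched the PA range (0.18 ± 0.05, edgeR adjusted p = 0.0337) and lost its call without PA replicate 1 or 2 or PA + C3G replicate 1 or 2 (adjusted p from 0.0766 to 0.113). The Mgat1 call was also lost with that scaling (0.09, edgeR adjusted p = 0.254), in both limma fits (0.0925 and 0.0918) and in a fit to PA and PA + C3G alone (0.0525). Mgat5 (7.96, 9.78 and 8.58 FPKM) and Mgat5b (2.10, 2.30 and 2.14) overlapped with PA, at −0.04 and 0.17.

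In the ER, Rpn2 and Ddost rose most with PA among the OST subunits annotated to the pathway. Neither passed between PA + C3G and PA, though Rpn2 did with the replicate number as a block (edgeR adjusted p = 0.0311). Ostc and Magt1, OST subunits outside the annotation described below, rose more with PA, and Magt1 fell with C3G. Rpn2 had 546, 467 and 508 FPKM with PA + C3G and Ddost 214, 195 and 202, both overlapping with PA, with log2 fold changes of 0.11 (SE 0.06) and 0.05 (SE 0.05), of which that of Ddost turned to −0.04 with libraries scaled to the same FPKM sum. Rpn1 had 509.8, 485 and 503 FPKM with PA + C3G, all somewhat under the PA libraries (−0.07 ± 0.03, edgeR adjusted p = 0.208), and it passed under that other scaling (−0.15, edgeR adjusted p = 0.0137). Tusc3 had 68.2, 64.3 and 63.6 FPKM, all above the PA libraries, and rose by 0.20 ± 0.04 (edgeR adjusted p = 0.00912), with no call under that scaling (edgeR adjusted p = 0.0521). Stt3b had 35.9, 35.4 and 34.7 FPKM, all under the PA libraries, and fell by 0.15 (edgeR adjusted p = 0.0264), and the call was lost without PA replicate 1, 2 or 3 or PA + C3G replicate 2 or 3 (adjusted p from 0.0550 to 0.0873). Alg8 had 14.9, 14.7 and 14.3 FPKM, all above PA, and rose by 0.28 ± 0.07 (edgeR adjusted p = 0.0257), which did not hold without PA replicate 1 or 3 or PA + C3G replicate 1, 2 or 3 (adjusted p from 0.0583 to 0.0822) or with libraries scaled to the same FPKM sum (0.0796). No gene of the donor supply or of cytosolic assembly passed in the fit used here. The nearest were Alg2 (0.11, edgeR adjusted p = 0.0554), Dolk (0.18, edgeR adjusted p = 0.0579) and Dpm1 (−0.20, edgeR adjusted p = 0.0735). These misses depended on the method. Dpm1 was lower in DESeq2 (adjusted p = 0.0484), with the other scaling (0.0133), with the filter at 5 FPKM (0.0494), in both limma fits (0.0416 and 0.0418), without PA replicate 1 (0.0470) and without PA + C3G replicate 1 (0.0399). Alg2 was higher in DESeq2 (adjusted p = 0.0463), and Dpagt1 was lower with the replicate block (edgeR adjusted p = 0.0374). Alg12 was lower with the other scaling (adjusted p = 0.0153) and in both limma fits (0.0306 and 0.0300).

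Set against BSA, cells given PA + C3G had most OST and trimming genes at a higher level. Of 46 genes, 19 were higher and 6 lower, 25 in all or 54.3%, where 36.9% of all genes tested passed (19.0% higher and 17.9% lower), and 4 met the fold criterion against 4.63% of all genes. The share that was higher, 41.3%, lay above the background, and the share that was lower, 13.04%, did not. With libraries scaled to the same FPKM sum the split was 18 higher and 10 lower. The comparison uses the same BSA libraries as that of PA with BSA and the same PA + C3G libraries as that with PA, so the values stand side by side and are no separate evidence. Rpn2 was at 1.23 ± 0.06 on the log2 scale relative to BSA (edgeR adjusted p = 6.51e-07), Ddost at 1.10 ± 0.05 (3.08e-07), Stt3a at 0.67 ± 0.04 (2.35e-06) and Dad1 at 0.60 ± 0.06 (7.13e-05). Tusc3 was at −0.03 and overlapped with BSA. The trimming genes Man1c1 (1.58), Man1b1 (0.71), Mogs (0.53) and Ganab (0.47) were all higher, as 5 of the 6 were. Alg2, at 0.59 ± 0.04, and Dpagt1, at 0.40 ± 0.09, were higher too.

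Lower than with BSA were Alg6 (9.25, 10.3 and 11.1 FPKM with PA + C3G against 14.4, 13.5 and 14.9 with BSA), Alg8, Alg10, Mgat5, Mgat5b and LOC108349244. Alg6 was at −0.42 ± 0.08 (edgeR adjusted p = 0.00331), Alg8 at −0.40 ± 0.07 (0.00235), Alg10 at −0.23 ± 0.05 (0.00749), Mgat5 at −0.51 ± 0.08 (0.000881), Mgat5b at −0.82 ± 0.13 (0.00094) and LOC108349244 at −0.42 ± 0.10 (0.0107). All 3 glucosyltransferases that finish the lipid-linked chain were thus under their BSA level with PA + C3G. B4galt1 (−0.21, edgeR adjusted p = 0.0528), B4galt2 (−0.13, edgeR adjusted p = 0.108), Mgat1 (−0.09) and Mgat4a (−0.03) did not pass against BSA. B4galt1 and B4galt2 were lower than with BSA under the scaling to the same FPKM sum (edgeR adjusted p = 0.0169 and 0.0243). Both were also lower in limma with a pseudocount of 1 (0.0126 and 0.0243) or of 0.1 (0.0127 and 0.0249). B4galt1 also passed in DESeq2 (0.0294), with median-ratio size factors (0.0460) and with the filter at 5 FPKM (0.0403). The same held for counts divided by 4 (0.0461) and without PA + C3G replicate 1 (0.0379). In the remaining settings B4galt1 did not pass. Alg5 (0.33 ± 0.08, edgeR adjusted p = 0.00924) and Dolk (0.24 ± 0.06, edgeR adjusted p = 0.0103), which had not passed between PA and BSA, were higher than with BSA, though neither passed between PA + C3G and PA.

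The balance between alternative enzymes of the same step was also compared. The ratio of Man1a1 to Man1a2, in FPKM, was 0.0472 to 0.0567 with BSA, 0.192 to 0.262 with PA and 0.0999 to 0.113 with PA + C3G, and the 3 ranges were apart. On the log2 scale the mean ratio was 2.17 higher with PA than with BSA and 1.08 lower with PA + C3G than with PA. For Magt1 to Tusc3, the alternative oxidoreductases of OST, the ratio was 0.183 to 0.209, 0.494 to 0.559 and 0.355 to 0.404, with log2 differences of 1.41 and −0.47. Magt1 rose with PA while the more abundant Tusc3 fell, and both moved the other way with C3G. For Mgat4a to Mgat4b the ratio was 0.267 to 0.321, 0.167 to 0.196 and 0.248 to 0.262, with differences of −0.74 and 0.51. For Stt3a to Stt3b the log2 ratio was 0.39, 0.66 and 0.79 in the 3 groups, higher with PA than with BSA by 0.27 and with PA + C3G than with PA by 0.13, where the Stt3a row may include the kinase. For B4galt1 to B4galt3 it was −2.25, −2.74 and −2.57, lower with PA by 0.49 and overlapping between PA + C3G and PA (exact permutation p = 0.2). The other 9 of these 10 comparisons did not overlap and each had p = 0.1 by the same two-sided exact permutation test, or 0.111 after Benjamini-Hochberg adjustment over the 10, so none could pass 0.05.

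**Figure D4:**
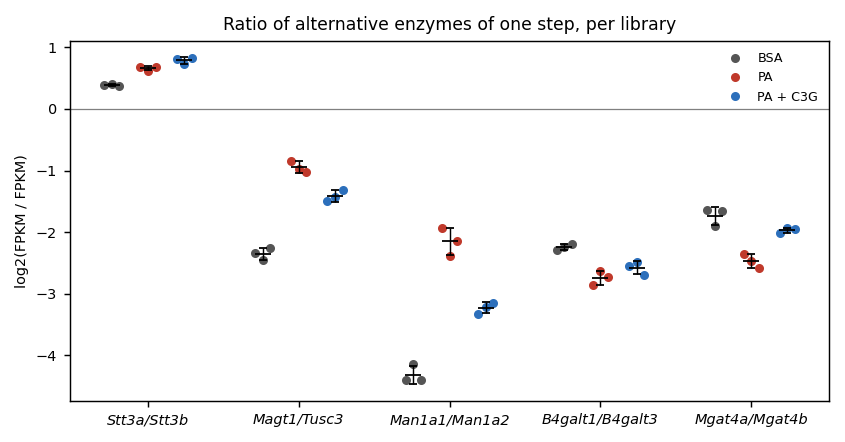
Log2 ratio of the FPKM of alternative enzymes of one step in each library, for 5 pairs, with BSA in gray, PA in red and PA + C3G in blue; bars show the mean and SD of 3 libraries. Man1a1/Man1a2 and Magt1/Tusc3 are highest with PA and intermediate with PA + C3G, Mgat4a/Mgat4b is lowest with PA, and Stt3a/Stt3b is highest with PA + C3G.

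Genes that feed the pathway or use its product, but are not annotated to it, were read in the same fit: a list of 37 such genes was drawn up, 35 were found in the table and 34 were tested. With PA, 28 of the 34 rose and none fell, 82.4% against the 25.8% of all genes that rose, with a median log2 fold change of 0.69. The list was drawn up with earlier results of these data known and leaves out genes annotated to the pathway. Among those left out were Srd5a3 of the supply and Tusc3 of OST, which fell with PA, and the 6 OST genes that rose. In the supply of the sugar nucleotides UDP-GlcNAc and GDP-mannose and of dolichol 8 of 11 rose, in OST subunits not annotated to the pathway 4 of 4, in the lectin folding cycle 5 of 5, in mannose-dependent disposal 7 of 7, and in Golgi donor transport and sialic acid synthesis 4 of 7. With C3G added to PA, 14 of the 34 passed, 1 higher and 13 lower, 41.2% against 21.2% of all genes. Those 13 lower genes were 6 of the supply, 1 of OST, 1 of the lectin cycle, 4 of disposal and 1 of the last group. Without PA replicate 3, 9 genes passed in place of 14.

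Dhdds, the catalytic subunit of the prenyltransferase that makes the dolichol chain, had 11.8, 12.1 and 12.5 FPKM with BSA, 28.3, 28.5 and 30.1 with PA and 16.8, 16.2 and 17.1 with PA + C3G. The 3 groups were apart, with a rise of 1.28 ± 0.04 with PA (edgeR adjusted p = 3.23e-08) and a fall of 0.76 with C3G (SE 0.04, edgeR adjusted p = 1.82e-05). Gfpt1, which commits glucose to the hexosamine pathway, had 29.0, 27.8 and 30.1 FPKM, then 49.9, 48.7 and 50.6, then 38.6, 39.6 and 41.0 in the same order, a rise of 0.81 and a fall of 0.29 (edgeR adjusted p = 2.25e-07 and 0.00113). Gne, the first enzyme of sialic acid synthesis, showed 12.6, 11.8 and 12.1 FPKM with BSA, 25.5, 24.0 and 26.4 with PA and 18.2, 19.0 and 18.6 with PA + C3G, again 3 separate ranges (1.08 and −0.41, edgeR adjusted p = 1.16e-07 and 0.000463). Slc35c1, the Golgi GDP-fucose carrier, rose with PA by 0.29 ± 0.05 (edgeR adjusted p = 0.000984).

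Among OST subunits outside the annotation, Magt1 had 13.3, 13.1 and 14.6 FPKM with BSA, 31.8, 29.8 and 29.2 with PA and 24.2, 23.9 and 25.7 with PA + C3G, in 3 separate ranges. It rose by 1.17 ± 0.05 with PA and fell by 0.26 with C3G (edgeR adjusted p = 1.87e-07 and 0.0085). Ostc, a subunit of the STT3A form, had 58.7, 58.6 and 55.3 FPKM with BSA, 134, 129 and 144 with PA and 122, 116 and 123 with PA + C3G. It rose by 1.26 ± 0.05 with PA (edgeR adjusted p = 6.2e-08) and did not pass with C3G (−0.14, edgeR adjusted p = 0.0632). It was lower with C3G in DESeq2 (adjusted p = 0.0442), with libraries scaled to the same FPKM sum (0.00887), with the filter at 5 FPKM (0.0481) and in limma with a pseudocount of 1 or of 0.1 (0.0320 and 0.0328). In the lectin cycle, Canx, the membrane lectin calnexin, had 201, 186 and 207 FPKM with BSA, 341, 345 and 340.3 with PA and 297, 288 and 297 with PA + C3G, a rise of 0.81 and a fall of 0.18 (edgeR adjusted p = 2.83e-07 and 0.0129). Uggt1, which puts a glucose back on unfolded glycoproteins, rose by 0.88 with PA (edgeR adjusted p = 9.62e-08) and was at −0.01 with C3G. The disposal lectin Os9 rose by 1.04 with PA (edgeR adjusted p = 1.06e-07) and was at 0.03 with C3G. The mannosidase Edem2 rose by 1.12 (edgeR adjusted p = 2.25e-07) and fell by 0.19 with C3G (edgeR adjusted p = 0.0298), a call lost without PA replicate 1 or 3 or PA + C3G replicate 2 or 3 (adjusted p from 0.0773 to 0.107).

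**Figure D5:**
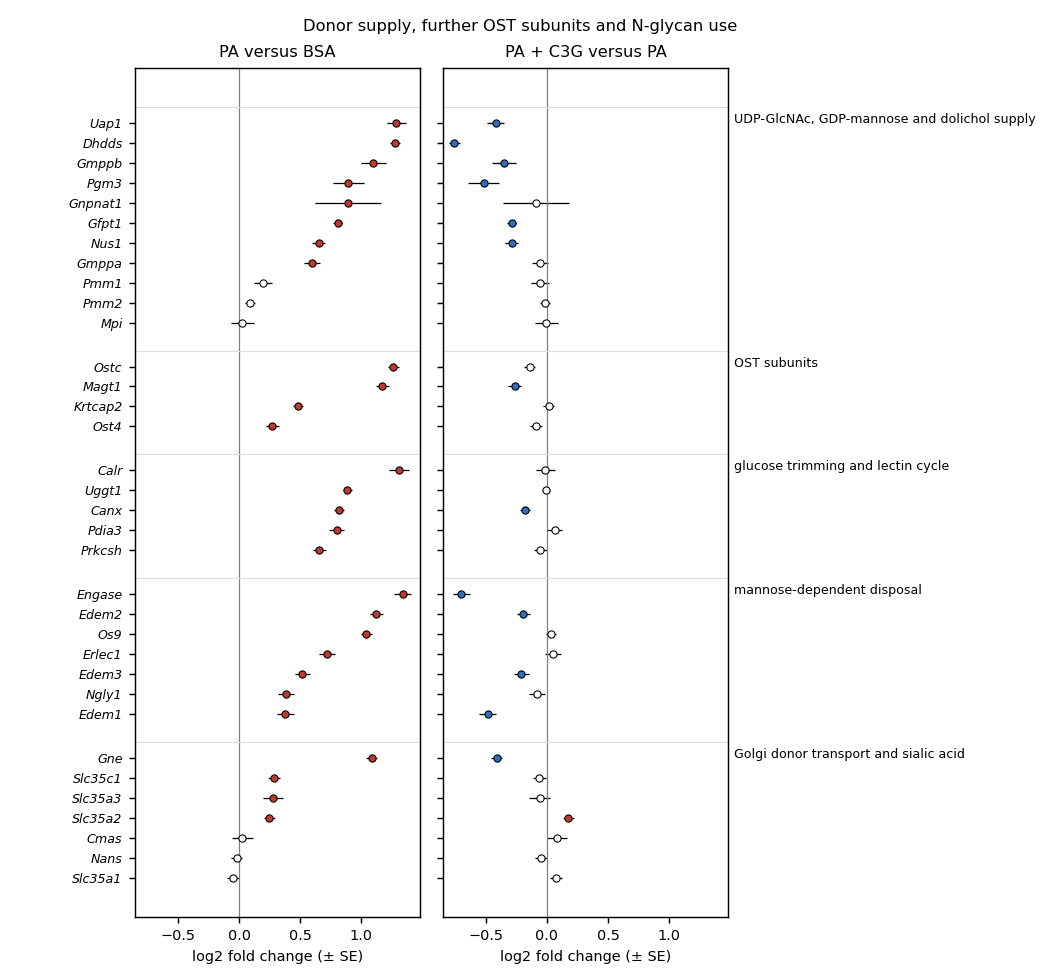
Log2 fold change with its SE (edgeR) for the 34 tested genes of donor supply, further OST subunits, lectin cycle, disposal and Golgi donors, for PA versus BSA on the left and PA + C3G versus PA on the right. Red points rose and blue points fell at an adjusted p under 0.05; 28 genes are red on the left, and 13 are blue and 1 is red on the right.

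Many ER genes are induced through short promoter elements, so RefSeq promoter windows (assembly GRCr8, 250 bases before to 50 after each start) were searched on both strands for 4 of them. These were the ER stress element ERSE (CCAAT, any 9 bases, CCACG), ERSE-II (ATTGG, any 1 base, CCACG), the core of the unfolded protein response element (TGACGTGG) and the C/EBP-ATF composite core (TTGCATCA). Of the 48 genes, 43 matched a window, and none held an exact match, where 0.0765%, 0.0546%, 0.637% and 0.743% of all 27457 windows did. Among the 35 further genes, 30 matched a window and 3 held an exact match. Canx and Calr held an ERSE, and Nans, an enzyme of sialic acid synthesis that did not pass between PA and BSA, held the core of the unfolded protein response element. Calr, the soluble lectin calreticulin, rose by 1.31 with PA (edgeR adjusted p = 1.05e-06) and is named here for its promoter. With 1 letter of the ERSE allowed to differ, a search added after the exact matches had been seen, 1.44% of all windows matched, and of the 48 genes Dolk did, a gene that did not pass between PA and BSA. Of the further genes, Nus1 and Slc35a3 did, and both had risen with PA. The stretches of Canx and Calr are shown because they hold the exact ERSE, and that of Dolk because it is the one N-glycan gene of the 48 with the near match. They are written 5′ to 3′ on the strand of the gene, with the element in capitals (in Calr it lies on the opposite strand). They are at chr10:35158049-35158107 on the minus strand, chr19:40213117-40213173 on the plus strand and chr3:33957764-33957822 on the minus strand, and the element starts 230, 232 and 122 bases before the start of the gene.
Canx: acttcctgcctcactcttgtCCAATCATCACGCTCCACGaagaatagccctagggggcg
Calr: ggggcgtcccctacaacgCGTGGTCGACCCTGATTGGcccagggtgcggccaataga
Dolk: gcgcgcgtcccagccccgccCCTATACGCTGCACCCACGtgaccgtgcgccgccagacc
A match describes these letters only. No match says that the letters are absent from this window, and nothing follows about the factors that bind such elements.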

How the data were processed

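RNA-seq was done by the authors on polyadenylated RNA of INS-1E cells with strand-specific libraries and paired-end reads of 150 bases. The submitters' processing notes list cutadapt 1.9, HISAT2 2.0.4, StringTie 1.3.4d, DESeq2 and edgeR without roles, and the genome build is not given in the sources used here. The authors deposited estimated counts (expected counts) per gene without normalization and FPKM scaled to gene length and mapped fragments.

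Low estimated counts pile up at multiples of 4 (4044 values at 4, against 2040 at 3 and 1276 at 5), so division by 4 was one alternative. Groups came from the labels. edgeR 4.0.16 in R 4.3.3 (TMM, quasi-likelihood test) was fitted to the rounded counts of all 9 libraries for genes averaging at least 1 FPKM. Sums and log2 ratios of FPKM were compared by exact permutation tests in SciPy 1.17.1. The members, role groups and further gene list were chosen with earlier results of these data known. Library values were given for up to 3 genes per role by p with PA, up to 6 genes by p with C3G, the 5 pairs, and up to 2 further genes per line. Other genes named, such as Mogs, Ganab, Mgat1, Dad1, Alg6 and St6gal1, fall outside this rule and were chosen after their values were seen. Tmem258 and Uggt2 are not analysed here. Also tried were DESeq2 1.42.0, median-ratio size factors in edgeR, equal FPKM sums (TPM scaling), an unfiltered table, a filter at 5 FPKM, fits to the compared groups, a replicate block, limma 3.58.1 on log2(FPKM + 1) and log2(FPKM + 0.1), and leaving out each library. The procedure was also run on simulated data, with larger changes than many of those called here, and that run is not used as evidence for any call.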

Additional observations from a re-analysis of the deposited data

How the results depend on the processing

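Dividing the counts by 4 ended none of the calls. Man1a1, Man1c1 and Mgat5b were low in FPKM, with SEs of 0.12, 0.08 and 0.13 for PA versus BSA, against 0.17 for Dpm3. How far depth limits such genes was not tested. Across 129 gene results, 2055 values were computed under 10 other settings and with each of 9 libraries left out. Of these, 1913 kept direction and call, 78 lost a call, 39 gained one and 25 changed sign. The 25 belong to genes that did not pass in the first place, and of 1465 values for the 92 called results 1387 kept the call and none changed sign.

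Scaling moved the C3G comparison, and the cause of the shifts given here was not tested. TPM scaling shifted the median of all genes by 0.03 for PA versus BSA, −0.09 for PA + C3G versus PA and −0.05 for PA + C3G versus BSA. For PA + C3G versus PA it gave 1 N-glycan gene higher and 11 lower, with a median of −0.10, and limma with a pseudocount of 1 or of 0.1 gave 3 higher and 7 lower, with medians of −0.041 and −0.042. The 1 gene past the fold criterion became 0 with the filter at 5 FPKM, which removes Man1a1 from the test, and 0 with limma on log2(FPKM + 1). For PA + C3G versus BSA, 10 genes were lower under TPM scaling and under limma with either pseudocount, with medians of 0.058, 0.053 and 0.055. For PA versus BSA the median was 0.11 with TPM scaling, 0.049 with limma on log2(FPKM + 1) and 0.044 without the rows Stt3a, Mogs and LOC103692171, an alternative chosen after the data were seen. With 1 added to each FPKM, the log2 ratio of Man1a1 to Man1a2 differed by 1.52 between PA and BSA and by −0.85 between PA + C3G and PA.

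Leaving out 1 library in turn gave 27 to 29 called N-glycan genes for PA versus BSA (17 to 18 higher, 10 to 12 lower, 4 to 5 by the fold criterion, medians 0.06 to 0.10). It gave 5 to 7 for PA + C3G versus PA (2 to 4 higher, 2 to 5 lower, 0 to 1 by the fold criterion, medians −0.01 to 0.01) and 24 to 27 for PA + C3G versus BSA (18 to 21 higher, 6 to 7 lower, medians 0.10 to 0.15). The count with C3G was 5 without PA replicate 3 or PA + C3G replicate 2, and Man1a1 missed the fold criterion without PA replicate 1 or PA + C3G replicate 1. Of the further genes, 26 to 28, 9 to 12 and 23 to 25 passed in the same order, with 9 without PA replicate 3. Fewer libraries enter these fits.

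Some values changed sign between PA + C3G and PA. Under TPM scaling they were Dpm2 −0.071, Alg1 −0.0047, Ddost −0.044, Man1c1 −0.069, Man1a2 −0.022 and Os9 −0.055. Under limma with pseudocounts of 1 and 0.1 they were Dpm2 −0.0169 and −0.0172, Man1c1 −0.014 and −0.016, and Os9 −0.00319 and −0.00321. With a library left out, Dpm2 ranged from −0.026 to 0.070, Man1c1 from −0.0086 to 0.044, Mgat5 from −0.13 to 0.024, B4galt3 from −0.047 to 0.0082, LOC108349244 from −0.15 to 0.071, Uggt1 from −0.022 to 0.0057 and Os9 from −0.0044 to 0.067. For PA + C3G versus BSA, Mgat4a ranged from −0.11 to 0.016.

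The labels give the groups the same replicate numbers. Deviations of same-numbered libraries from their group means correlated at −0.0918 to 0.0796, and the labels name no shared culture or day. Between PA and PA + C3G 6 of 6 libraries correlated best with the library of their own number, against 3 of 6 between PA and BSA and 0 of 6 between PA + C3G and BSA. With the replicate number as a block, 32, 12 and 26 N-glycan genes passed in place of 32, 9 and 25, and 6843, 3118 and 5058 genes of all tested. The block ended the PA calls of Dpm2 (edgeR adjusted p = 0.0550) and Srd5a3 (edgeR adjusted p = 0.0634) and the PA + C3G versus BSA call of Dpm2 (edgeR adjusted p = 0.0530). With it B4galt3 passed between PA + C3G and BSA (edgeR adjusted p = 0.0172), and Rpn2 (edgeR adjusted p = 0.0311) and Dpagt1 (edgeR adjusted p = 0.0374) passed between PA + C3G and PA.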
